A study of Homo sapiens with 6 samples.

Results

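Matrix metalloproteinases (MMPs) and their tissue inhibitors (TIMPs) were examined in RNA sequencing data of SUM1315, a human breast cancer line of the triple-negative class. The 9 genes MMP1, MMP2, MMP3, MMP9, MMP14, MMP15, TIMP1, TIMP2 and TIMP3 were taken by name, among 26409 genes with a value, and the level of each was the sum of RPKM (reads per kilobase of transcript, scaled to sequencing depth) over its Ensembl transcripts. The line carries the label WT, and all cells grew in the same medium with serum, insulin and EGF. In the normoxia group (3 libraries) cells stayed in air with 21% oxygen, and in the hypoxia group (3 libraries) they spent 24 h in a sealed chamber with 1% oxygen. Whether the 3 libraries of a group stem from separate cultures is not stated in the labels, and the p-values therefore measure library-to-library spread alone, which may be technical.

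MMPs are zinc-dependent proteases that cut collagens and other proteins of the extracellular matrix. They are made as inactive proenzymes in which a cysteine of the propeptide blocks the zinc, and they become active when that propeptide is removed. TIMPs bind the active site and block it. MMP14 is anchored in the cell membrane, where TIMP2 bound to it can act as a receptor for pro-MMP2, which a neighbouring free MMP14 then activates. TIMP2 thus takes part in activation of MMP2 and also inhibits both enzymes.

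Of the 9 genes, 4 were expressed above 1 RPKM in at least 3 libraries and could be tested: MMP14, TIMP1, TIMP2 and MMP2. In hypoxia MMP14 rose 1.23-fold and TIMP1 rose 1.15-fold, while TIMP2 fell to 0.805 of its normoxic level and MMP2 did not pass the test. Among all 11884 tested genes 36.8% changed at an adjusted p under 0.05, with 12.4% raised and 24.4% lowered, and the 3 changed genes of 4 tested are to be read against these shares. Of all calls 66.2% were decreases, a share of 41.2% with median-of-ratios scaling, 42.6% with upper-quartile scaling and 78.2% with libraries rescaled to equal sums. The median log2 fold change over all tested genes was -0.08. The groups did not overlap for MMP14, TIMP1 and TIMP2, a pattern seen in 52.0% of all tested genes. MMP1, MMP3, MMP9 and MMP15 stayed below 1 RPKM in every library, and TIMP3 was listed at 0 in 5 of 6.

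The promoters of the raised members are shown because both genes were higher in hypoxia. The RefSeq table (GRCh38.p14) held windows of 300 bases, from 250 before to 50 after the start, for 4 of the 9 genes: MMP14, MMP15, TIMP1 and TIMP3. For MMP14 (chr14:22836335-22836556, plus strand) and TIMP1 (chrX:47582186-47582312, plus strand) the part before the earliest exon annotated in GENCODE 29 reads as follows, 5′ to 3′, with matches to the searched motifs in capitals.
MMP14: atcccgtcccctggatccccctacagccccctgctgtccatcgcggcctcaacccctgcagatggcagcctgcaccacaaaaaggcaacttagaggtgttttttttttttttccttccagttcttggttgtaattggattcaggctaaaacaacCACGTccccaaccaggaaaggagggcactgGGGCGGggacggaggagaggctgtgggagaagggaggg
TIMP1: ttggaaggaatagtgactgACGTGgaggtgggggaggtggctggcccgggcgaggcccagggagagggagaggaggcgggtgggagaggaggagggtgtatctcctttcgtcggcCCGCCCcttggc
Both strands were searched for ACGTG and GCGTG (the core bound by hypoxia-inducible factors), GGGCGG (GC box), TATAAA, and TGAGTCA, whose reverse complement TGACTCA is the same AP-1 site. MMP14 held ACGTG on the minus strand at -96 to -92 from the RefSeq start and GGGCGG at -66 to -61. TIMP1 held ACGTG at -231 to -227, GCGTG at -36 to -32, and GGGCGG on the minus strand at -135 to -130 and -45 to -40. The ones near the start of TIMP1 lie outside the printed stretch. ACGTG occurred in 21.4% of 35116 promoter windows of the same length, GCGTG in 36.5%, either of these cores in 48.4%, and GGGCGG in 45.0%. TIMP3, which was almost silent, held GCGTG as well, and TIMP3 and MMP15 held 5 matches to GGGCGG each. None of these 4 windows matched TGAGTCA (4.95% of all windows) or TATAAA (11.5%). A match is a stretch of letters and no measure of binding.

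The levels spanned a wide range, and RPKM, being scaled by length, allows a rough comparison between genes. Remaining effects of GC content and transcript length on the level of a gene were not measured. Whether the order of MMP14 and TIMP1, which lay close together, depends on them was not tested. MMP14 had the highest level, with TIMP1 close behind, then TIMP2 and MMP2. By mean level over the 6 libraries MMP14 ranked 410 and TIMP1 ranked 495 of 26409 genes, TIMP2 ranked 1368 and MMP2 ranked 4070. The libraries of these 4 genes did not overlap between neighbours in that order within either group. MMP15 and MMP9 came next, separate in normoxia (0.794 to 0.851 against 0.286 to 0.479 RPKM) but overlapping in hypoxia (0.671 to 0.828 against 0.456 to 0.808). MMP1 and MMP3 overlapped in normoxia (0.110 to 0.120 against 0.0979 to 0.140) and not in hypoxia (0.110 to 0.144 against 0.0650 to 0.0778). TIMP3 was lowest.

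**Figure D1:**
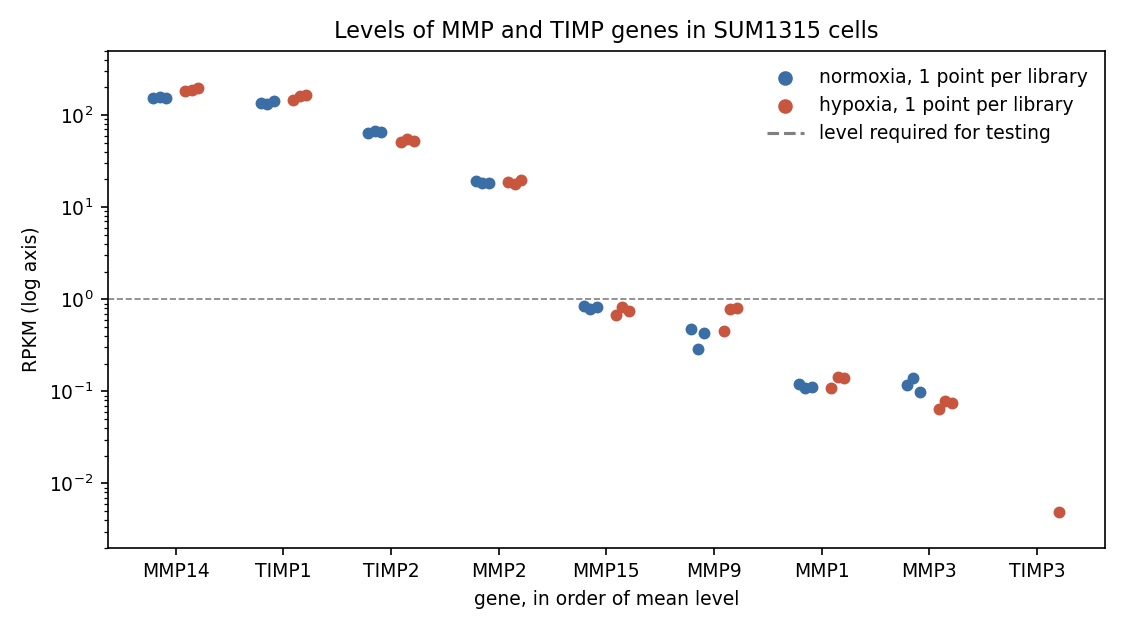
RPKM of each of the 9 genes on a log axis, with 1 point per library (blue normoxia, red hypoxia), genes ordered by mean level. MMP14, TIMP1, TIMP2 and MMP2 lie above the dashed line at 1 RPKM and the other 5 below it; the 5 libraries in which TIMP3 was listed at 0 cannot be drawn on a log axis.

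MMP14, the membrane-anchored collagenase and activator of pro-MMP2 (ENSG00000157227, chromosome 14, 22836557 to 22849027, plus strand, GRCh38), stood at 153, 155 and 153 RPKM in normoxia and at 183, 187 and 199 RPKM in hypoxia. Each hypoxic library was above each normoxic library, and the hypoxic libraries were more spread out (153.8 ± 1.47 and 189.7 ± 8.08, SD, n = 3 each). The log2 fold change was 0.30 (SE 0.05, 95% interval 0.18 to 0.42, adjusted p = 0.00228, limma). A larger log2 fold change was found for 9.53% of tested genes. The increase passed the threshold in all 19 alternatives run, between 0.20 after removal of a GC trend and 0.38 with median-of-ratios scaling. These values rest on 25627 to 30609 estimated reads per library.

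TIMP2, the inhibitor that can link pro-MMP2 to MMP14 (ENSG00000035862, chromosome 17, 78852977 to 78925387, minus strand), moved the other way. Its level was 64.3, 66.7 and 65.9 RPKM in normoxia and 51.5, 54.5 and 52.4 RPKM in hypoxia (65.6 ± 1.23 and 52.8 ± 1.55, SD, n = 3 each). All 3 hypoxic libraries were below all 3 normoxic ones, and the spread was small in both groups. The log2 fold change was -0.31 (SE 0.05, 95% interval -0.43 to -0.19, adjusted p = 0.00205, limma), and 13.2% of tested genes had a lower value. The decrease passed in all 19 alternatives, from -0.38 with libraries rescaled to equal sums to -0.22 with median-of-ratios scaling. TIMP2 holds the gene CEP295NL on the same strand, sharing 198 exonic bases, at 0.0434 to 0.129 RPKM.

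TIMP1, a secreted inhibitor of most MMPs that is also known as a growth-promoting factor (ENSG00000102265, chromosome X, 47582313 to 47586789, plus strand), stood at 136, 133 and 141 RPKM in normoxia and at 147, 161 and 166 RPKM in hypoxia. The groups did not overlap, but hypoxia replicate 1 came within 6.2 RPKM of the highest normoxic library. The means were 136.8 ± 3.85 and 157.7 ± 9.57 RPKM (SD, n = 3 each), a log2 fold change of 0.20 (SE 0.06, 95% interval 0.07 to 0.33, adjusted p = 0.0236, limma). This call was the least stable of the 3. It was lost without normoxia replicate 1 (adjusted p = 0.0801), normoxia replicate 2 (0.106), normoxia replicate 3 (0.0544) or hypoxia replicate 3 (0.0520), and the range over all 19 alternatives was 0.00369 to 0.352 (limma).

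TIMP1 transcripts are short and rich in G and C: the expression-weighted length was 899 bases and the GC content 58.0%, where the medians of tested genes were 2369 bases and 50.5%. With trends on GC content and length removed from each library, the log2 fold change of TIMP1 was 0.04 (adjusted p = 0.352, limma), while that of MMP14 was 0.24 and that of TIMP2 was -0.29, both past the threshold. TIMP1 lies wholly inside SYN1, a synapsin gene on the other strand, with no exonic base in common, and SYN1 was at 0.270 to 0.585 RPKM.

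MMP2, the gelatinase that cuts denatured collagen and basement membrane collagen (ENSG00000087245, chromosome 16, 55389700 to 55506691, plus strand), was at 19.4, 18.3 and 18.2 RPKM in normoxia and at 18.8, 17.7 and 19.9 RPKM in hypoxia. The groups overlapped, with the lowest and the highest library both hypoxic. The log2 fold change was 0.01 with a 95% interval of -0.14 to 0.16 (adjusted p = 0.881, limma), so an increase as large as the estimate for MMP14 or a decrease as large as that for TIMP2 lay outside the interval. MMP2 missed the threshold in all 19 alternatives, which gave values between -0.06 and 0.10.

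**Figure D2:**
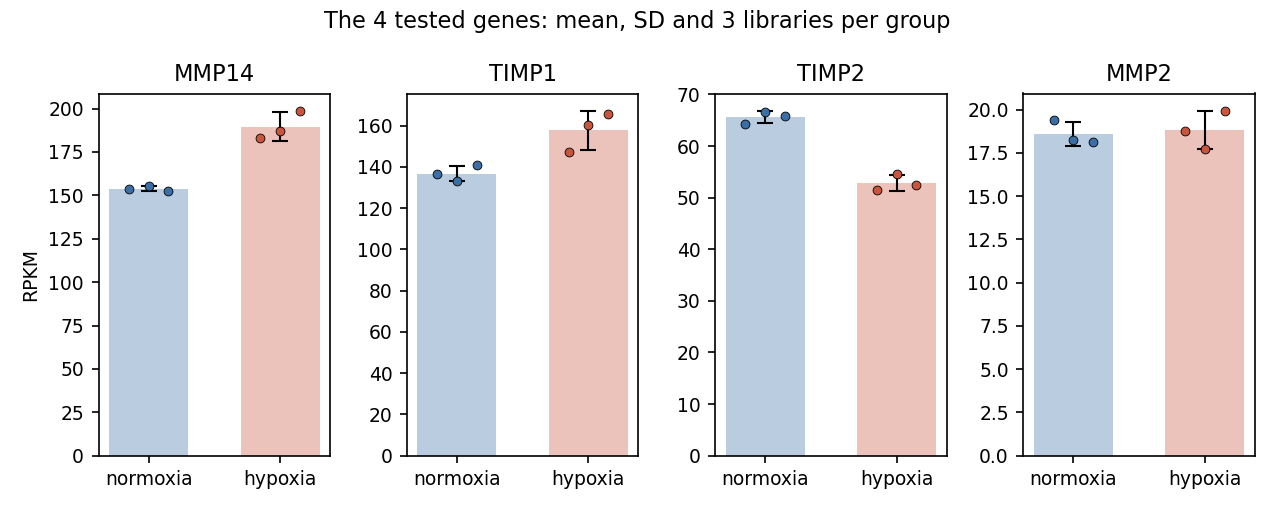
RPKM of the 4 tested genes, each panel with its own axis from 0; bars show the mean, error bars the SD, and points the 3 libraries of a group. MMP14 and TIMP1 were higher in all hypoxic libraries, TIMP2 was lower, and the MMP2 groups overlap.

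The plot of log2 fold changes sets the 4 members among all tested genes. In the same fit all 9 tested genes of a 10-gene list of known hypoxia responders were raised. Their median log2 fold change was 2.04, with VEGFA, the angiogenic growth factor, at 1.07. The remaining gene, CA9, was at most 0.0639 RPKM and was not tested. The list was chosen with earlier results of these data known, so it is no independent check.

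**Figure D3:**
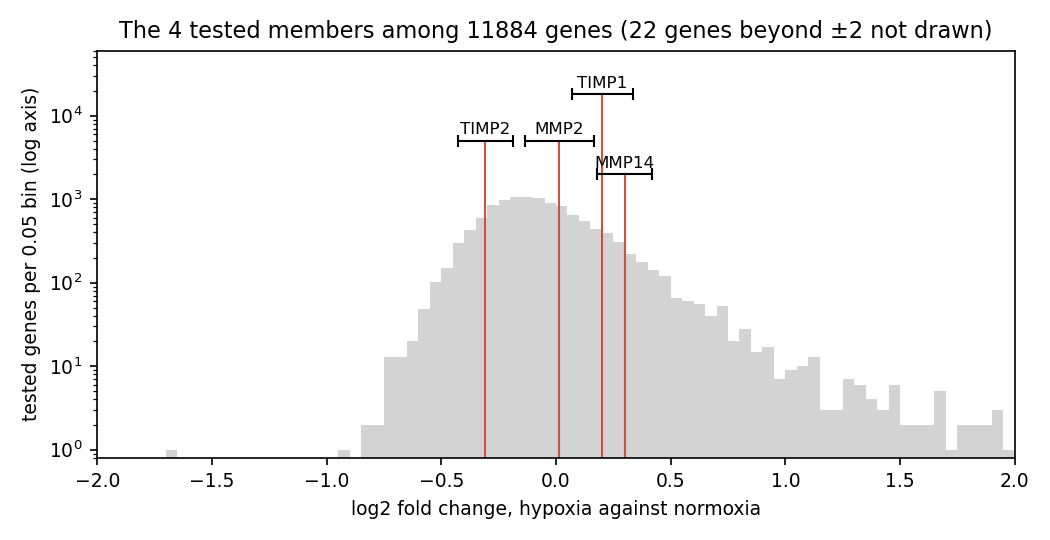
Number of tested genes by log2 fold change (bins of 0.05, log axis), with red lines at TIMP2, MMP2, TIMP1 and MMP14 and black bars for their 95% intervals. The 4 members lie between -0.31 and 0.30, inside the bulk of the distribution, while 22 genes past 2 in size are not drawn.

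Within a library the level of a protease relative to its inhibitor does not depend on how libraries are scaled. Such a ratio does not remove trends on GC content or transcript length. With both trends removed the log2 fold change was 0.04 for TIMP1, 0.24 for MMP14 and -0.29 for TIMP2. The MMP14 to TIMP2 ratio was 2.39, 2.33 and 2.32 in normoxia and 3.56, 3.43 and 3.79 in hypoxia, 2.35 ± 0.0374 and 3.59 ± 0.185 (SD, n = 3 each). Every hypoxic library was above every normoxic library, and the mean difference was 0.61 on the log2 scale. Both follow from the rise of MMP14 and the fall of TIMP2 already given and are no separate result. The MMP14 to TIMP1 ratio was 1.12, 1.17 and 1.08 in normoxia and 1.25, 1.16 and 1.20 in hypoxia, so these groups overlapped. Among the inhibitors the balance shifted: TIMP1 made up 67.6% ± 0.819 of the summed TIMP level in normoxia and 74.9% ± 0.973 in hypoxia, and TIMP2 the rest but for TIMP3. Summed over the 6 MMPs the level was 173.9 ± 1.47 and 210.1 ± 9.09 RPKM, of which MMP14 gave 88.5% and 90.3%. Summed over the 3 TIMPs it was 202.4 ± 3.77 and 210.5 ± 10.5 RPKM, with overlapping groups. The ratio of the summed MMPs to the summed TIMPs was 0.859 ± 0.0230 in normoxia and 0.999 ± 0.0338 in hypoxia. These are ratios of messenger RNA levels of chosen genes and were given no test.

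**Figure D4:**
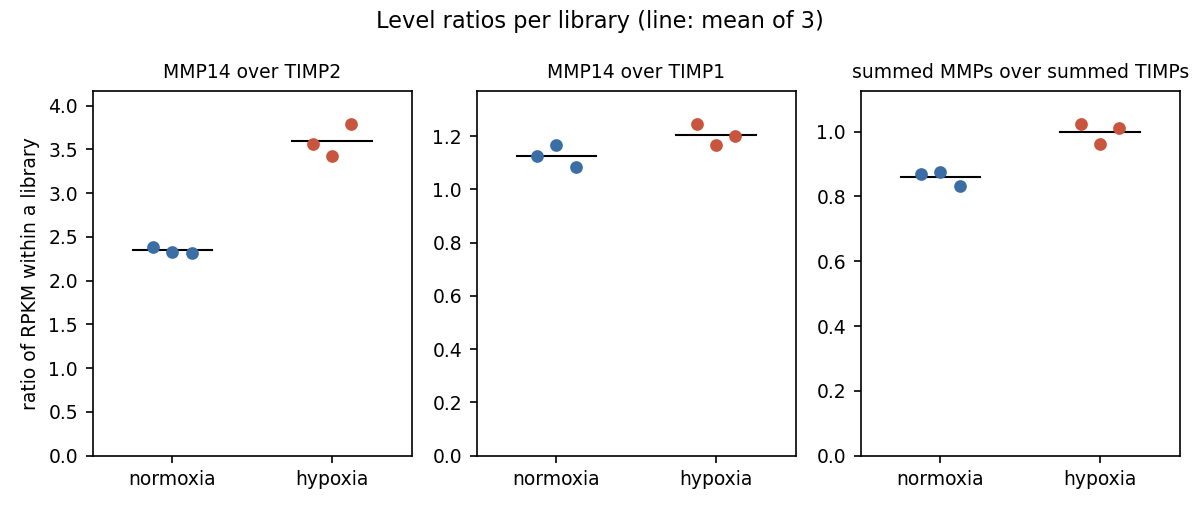
Ratio of RPKM within each library, 1 point per library, with a line at the mean of 3 and axes from 0. The MMP14 to TIMP2 ratio separates the groups (2.32 to 2.39 against 3.43 to 3.79), and the MMP14 to TIMP1 ratio does not (1.08 to 1.17 against 1.16 to 1.25); the ratio of summed MMPs to summed TIMPs separates them as well.

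The changed members were also followed by transcript. These values are estimates that divide reads between overlapping transcripts, so they are given with no test. MMP14 was carried by ENST00000311852, its transcript of 10 exons and 582 codons, which made up 82.4% of the gene in normoxia and 80.6% in hypoxia and went from 126.7 ± 0.135 to 152.9 ± 7.71 RPKM with no overlap of groups. The other MMP14 transcripts above 5 RPKM were ENST00000548162, annotated as a processed transcript without coding sequence (18.8 ± 1.10 and 24.7 ± 7.64), and ENST00000547074, which retains an intron (6.23 ± 1.02 and 9.45 ± 3.32). Both overlapped between groups.

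TIMP2 had 4 transcripts above 5 RPKM, and for each the hypoxic libraries all lay below the normoxic ones. They end at nearly the same base (78852977 or 78852981) and divide reads, so they are not 4 independent observations. Groups did not overlap in 52.0% of all tested genes, and the share over all transcripts was not computed. ENST00000262768, which encodes the TIMP2 of 220 codons, went from 29.9 ± 1.19 to 22.1 ± 1.79 RPKM. ENST00000585421 went from 18.4 ± 0.566 to 16.0 ± 0.938, ENST00000586057 from 9.71 ± 0.148 to 8.37 ± 0.563 and ENST00000536189 from 6.83 ± 0.0406 to 5.78 ± 0.441 RPKM. These shorter forms are annotated with 143 codons, and ENST00000585421 and ENST00000586057 begin far inside the gene, at 78874150 and 78874089. The share of ENST00000262768 in the TIMP2 level was 44.5%, 46.5% and 45.5% in normoxia and 39.3%, 40.8% and 45.5% in hypoxia, groups that overlapped.

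For TIMP1 the main transcript ENST00000218388 (207 codons) went from 120.1 ± 4.03 to 140.7 ± 8.54 RPKM. The next in level, ENST00000456754 (136 codons), was at 11.8, 10.1 and 10.9 RPKM in normoxia and 12.1, 12.1 and 13.6 in hypoxia, again higher in every hypoxic library. A minor form, ENST00000377017 (143 codons), was lower in hypoxia, at 4.98, 6.45 and 5.37 RPKM in normoxia and 3.93, 4.05 and 4.90 in hypoxia. The groups of these 3 transcripts did not overlap, as was the case for 52.0% of all tested genes. The share over all transcripts was not computed. The minor form made up 4.09% of TIMP1 in normoxia and 2.72% in hypoxia. MMP2 was carried by ENST00000219070 (660 codons) at 16.3 ± 0.494 and 16.3 ± 1.01 RPKM.

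**Figure D5:**
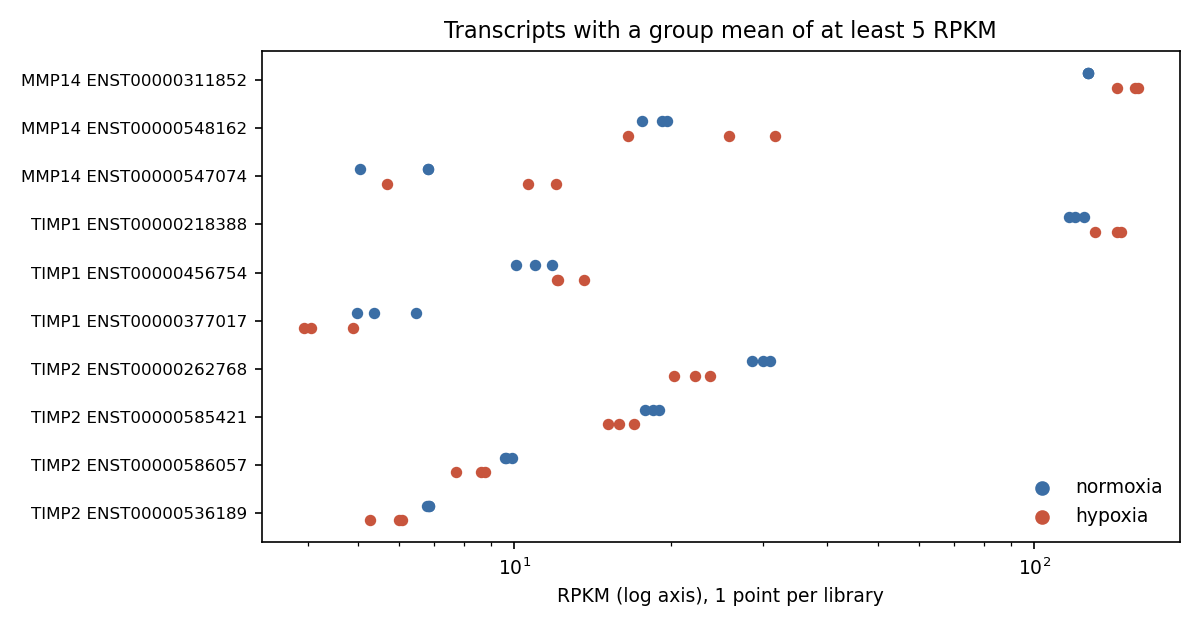
RPKM of MMP14, TIMP1 and TIMP2 transcripts with a group mean of at least 5 RPKM, on a log axis, 1 point per library (blue normoxia, red hypoxia). All 4 TIMP2 transcripts lie lower in hypoxia, while the main transcripts of MMP14 and TIMP1 lie higher.

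The remaining members were too weakly expressed for the test across genes. MMP9, the second gelatinase (chromosome 20, 46008908 to 46016561), was at 0.479, 0.286 and 0.433 RPKM in normoxia and at 0.456, 0.789 and 0.808 in hypoxia, about 34.0 to 91.0 estimated reads per library. Hypoxia replicates 2 and 3 were above all normoxic libraries and replicate 1 was among them (two-sided exact permutation p = 0.2, where 0.1 is the smallest that 3 against 3 libraries allow). MMP9 shares 430 exonic bases with SLC12A5-AS1 on the other strand, and the library kit does not mark strand. SLC12A5-AS1 was listed at 0 in 4 libraries and at 0.0835 and 0.0834 RPKM in hypoxia replicates 2 and 3, the same libraries in which MMP9 was high, and its part in the MMP9 values was not tested.

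MMP15, the other membrane-anchored member (chromosome 16, 58025566 to 58046901), was at 0.851, 0.794 and 0.829 RPKM in normoxia and 0.671, 0.828 and 0.739 in hypoxia, and the groups overlapped. MMP1, the interstitial collagenase (chromosome 11, 102789920 to 102798160), was at 0.120, 0.110 and 0.111 RPKM in normoxia and 0.110, 0.144 and 0.138 in hypoxia, about 11 to 14 estimated reads. MMP3, the stromelysin that activates other proMMPs and lies near MMP1 (102835801 to 102843803), was at 0.119, 0.140 and 0.0979 RPKM in normoxia and 0.0650, 0.0778 and 0.0749 in hypoxia. All 3 hypoxic values of MMP3 were lower (two-sided exact permutation p = 0.1, again the minimum possible), but they rest on 6.64 to 14.4 estimated reads per library. A fit without a filter on low values, in which 9.22% of 26409 genes were called, called none of MMP1, MMP3, MMP9, MMP15 and TIMP3. TIMP3, the inhibitor held in the matrix (chromosome 22, 32801701 to 32863043), was listed at 0 in all libraries but hypoxia replicate 3, where 0.00495 RPKM corresponds to about 1.00 estimated read.

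Among other members of the family, 13 of 18 listed genes had a value and 3 could be tested. Of the 3 tested, 2 were raised and 0 lowered, where 12.4% of all tested genes were raised and 24.4% lowered. MMP17, a membrane-anchored MMP held by a lipid anchor, rose from 3.25, 3.25 and 3.15 to 4.48, 5.39 and 6.07 RPKM (log2 fold change 0.58, SE 0.10, adjusted p = 0.00184, limma). MMP11, stromelysin 3, rose from 4.56 ± 0.715 to 6.37 ± 0.747 RPKM (n = 3 each, log2 fold change 0.41, adjusted p = 0.0156, limma), a call lost without normoxia replicate 3 (adjusted p = 0.0732) and with no filter on low values (0.117). In the fit without that filter MMP25, another MMP held by a lipid anchor, was called instead, at 0.268, 0.154 and 0.188 RPKM in normoxia and 0.471, 0.419 and 0.565 in hypoxia (log2 fold change 0.30, adjusted p = 0.0336, limma). MMP16, another membrane-anchored MMP, was at 1.22 ± 0.242 and 0.992 ± 0.190 RPKM and did not pass (adjusted p = 0.300, limma). The other 10 stayed below 1 RPKM in every library, among them TIMP4 and the secreted enzymes MMP7, MMP8, MMP10 and MMP12.

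Genes that activate MMPs or control them at the cell surface went both ways. Of 31 listed genes 24 were tested, 6 were raised and 5 lowered, where 12.4% of all tested genes were raised and 24.4% lowered. The raised genes include SPOCK1, at 0.889 ± 0.0491 RPKM in normoxia and 1.27 ± 0.155 in hypoxia (adjusted p = 0.0475, limma). SPOCK1 entered the test only through its hypoxic libraries, so its call was favoured by the filter. The median log2 fold change was -0.08, equal after rounding to that of all tested genes. The raised number was 3 without normoxia replicate 1 or normoxia replicate 2. Among the raised genes was PLAT, which activates plasminogen, whose product plasmin can remove MMP propeptides. PLAT went from 5.10 ± 0.361 to 9.71 ± 0.658 RPKM (log2 fold change 0.81, adjusted p = 5.67e-05). The largest decreases were VAMP7, a protein of vesicle fusion with a known part in MMP14 delivery to the surface, from 28.7 ± 1.16 to 20.0 ± 1.99 RPKM (-0.50, adjusted p = 9.20e-04), and THBS1, a matrix protein that binds MMPs, from 2.58 ± 0.236 to 1.65 ± 0.112 (-0.43, adjusted p = 0.00495). FURIN, which cleaves the MMP14 propeptide, was at 23.5 ± 0.595 and 23.6 ± 2.30 RPKM (adjusted p = 0.990), and RECK, a membrane inhibitor of MMPs, at 1.26 ± 0.138 and 1.09 ± 0.0372 (adjusted p = 0.355). FURIN and RECK were picked for their roles after their values were seen.

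Several of the related ADAM and ADAMTS proteases are also inhibited by TIMPs. Of 21 listed genes 13 were tested, 2 were raised and 1 lowered, where 36.8% of all tested genes were called, and the median log2 fold change was 0.01. ADAMTS10 rose from 2.15 ± 0.306 to 3.20 ± 0.417 RPKM, ADAMTS7 from 2.39 ± 0.376 to 3.10 ± 0.195, and ADAMTS3, a procollagen peptidase, fell from 3.55 ± 0.284 to 2.55 ± 0.577 (adjusted p = 0.0117, 0.0498 and 0.0331, limma). None of these 3 calls held in every leave-out: ADAMTS10 was lost without normoxia replicate 2 (0.0547), ADAMTS7 without any 1 of the 6 libraries (0.0546 to 0.206), and ADAMTS3 without normoxia replicate 1 (0.105), 2 (0.0804) or 3 (0.0567) or hypoxia replicate 2 (0.0840).

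Of 21 transcription factors known to act on MMP promoters 18 were tested, 7 were raised and 3 lowered (median log2 fold change 0.17). Over all tested genes the shares were 12.4% raised and 24.4% lowered. The AP-1 subunit JUNB rose from 53.4 ± 1.72 to 78.9 ± 9.84 RPKM (log2 fold change 0.55, adjusted p = 8.59e-04) and the NF-kappaB subunit RELA from 44.1 ± 0.871 to 60.3 ± 7.11 (0.44, adjusted p = 0.00205). HIF1A messenger RNA fell from 26.2 ± 0.197 to 21.3 ± 1.47 (-0.29, adjusted p = 0.00756, lost with the GC trend removed, 0.117) and SP1, which binds GC boxes, from 9.24 ± 0.225 to 7.55 ± 0.949 (-0.27, adjusted p = 0.0374). NFKB1, another NF-kappaB subunit, named after its values were seen, fell from 10.03 ± 0.298 to 8.20 ± 0.456 (-0.26, adjusted p = 0.0179). This decrease did not pass without normoxia replicate 1 (0.0751) or 3 (0.0728) and with median-of-ratios (0.0810) or upper-quartile scaling (0.0749). SP1, called in 9 of 19 alternatives, was lost when normoxia replicate 1 (0.107), 2 (0.109) or 3 (0.0823) was left out, and likewise hypoxia replicate 2 (0.10) or 3 (0.0599). Without normoxia replicate 1, 2 or 3 the number raised was 4 each, and without normoxia replicate 1 or 3 the number lowered was 1.

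Of 23 listed matrix and surface substrates 10 were tested, 3 raised and 3 lowered (median -0.09). Among all tested genes 12.4% were raised and 24.4% lowered. The chains of type I collagen, the classical substrate of MMP14, rose: COL1A1 from 257.0 ± 21.2 to 390.1 ± 26.9 RPKM (log2 fold change 0.60, adjusted p = 2.10e-04) and COL1A2 from 226.2 ± 5.25 to 280.2 ± 9.30 (0.31, adjusted p = 0.00195). TNC, the matrix glycoprotein tenascin C, fell from 24.1 ± 0.914 to 16.0 ± 2.48 (-0.58, adjusted p = 0.00151) and COL4A2, a basement membrane collagen chain, from 4.74 ± 0.345 to 3.54 ± 0.131 (-0.34, adjusted p = 0.0105). COL4A2 was lost without normoxia replicate 1 (0.0525) or 2 (0.0506), where the number lowered in the list was 1, and with protein-coding transcripts only (log2 fold change -0.21, adjusted p = 0.0535).

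Likeness of pattern was measured as the Euclidean distance over 6 libraries between log2(RPKM + 1) values centred on each gene's mean. The nearest tested genes to MMP14 were NKILA, a long noncoding RNA, at a distance of 0.0380, and COL1A2 at 0.0388. Near TIMP1 lay RPL36, a ribosomal protein gene (0.0414). Near TIMP2 lay EXOSC9, a subunit of the RNA exosome (0.0408).

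The smallest steps of the values gave a depth of 50.4 to 50.9 M reads for normoxia and of 44.0 to 50.6 M for hypoxia. A single read on 2 kb of transcript then equals 0.00982 to 0.0114 RPKM. Of 10 genes listed as markers of a breast epithelial line 9 were below 1 RPKM in every library. The mammary label was therefore not borne out by keratins, EPCAM or CDH1. The exception was VIM, a marker of mesenchymal rather than epithelial cells, at 4839.7 ± 86.5 RPKM in normoxia and 6741.7 ± 609.7 in hypoxia. ESR1 was below 1 RPKM, while ERBB2 was at 21.6 and 22.1 RPKM on average. Of 7 fibroblast markers with a value, COL1A1, ACTA2 (32.5 to 48.8 RPKM on average) and FAP (12.4 to 17.7) rose and PDGFRA (3.75 to 2.20) fell. PDGFRB, THY1 and LUM were at most 0.152, 0.0262 and 0.00735 RPKM. The fibroblast list summed to 291 to 330 RPKM in normoxia and 430 to 473 in hypoxia. Most of this sum was COL1A1, at 257.0 ± 21.2 RPKM in normoxia and 390.1 ± 26.9 in hypoxia. Of 5 leukocyte markers with a value only CD68 exceeded 1 RPKM, with a summed list level of 46.1 to 48.7 RPKM in normoxia and 74.3 to 81.3 in hypoxia, and PTPRC was at most 0.00826. The 4 endothelial markers with a value summed to at most 0.332 RPKM. The part of these marker changes in the MMP and TIMP values was not tested. In bulk RNA fewer cells of a kind and less RNA per cell cannot be told apart.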

How the data were processed

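The authors deposited a table of RPKM values for 165956 Ensembl transcripts in 6 columns, matched to samples by label. Per the submitters' processing notes the tools were Trimmomatic, HISAT2, SAMtools and Partek on GRCh38 (hg38). Versions, annotation and strand setting: not given in the sources used here. RPKM as the unit was inferred from the values: in genes with 1 transcript, low values times length lay within 0.1 of whole multiples of a step per library in 79.0% to 80.2% of cases up to 20 reads, which gives depth and estimated reads. GENCODE 29 matched 140004 transcripts (84.4%), and RPKM was summed per gene. A gene entered the test when 3 or more libraries exceeded 1 RPKM. The test was limma on log2(RPKM + 1), its prior variance following mean level, Benjamini-Hochberg adjustment over 11884 genes and a threshold of 0.05. Fold changes on this scale understate changes of weakly expressed genes. Alternatives were other scalings, filters and pseudocounts, leaving out each library, a replicate block, protein-coding transcripts only and limma-voom on estimated reads.

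The members and lists were chosen with earlier results of these data known. Named genes were the 9 members, up to 2 raised and 2 lowered genes per list with a mean of at least 1 RPKM, other family members at 1 RPKM or more, and the 2 genes nearest to each changed member. Some genes that this rule picks are not reported here. Protein sequences were not used here. Replicates differed by more than counting noise over 12848 genes. The mean chi-square per gene was 6.69 to 12.8 between normoxic libraries and 21.0 to 25.8 between hypoxic ones. Hypoxic libraries were thus more spread out, with a median SD of log2 values of 0.111 against 0.0611 in normoxia. The test used a common variance for both groups of a gene. The median-of-ratios factors were redefined after their result had been seen: the first definition used every gene above 0 in all libraries, including values near 0 that are not whole reads, and the second used tested genes. Both are given among the alternatives.

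The procedure was run on simulated hypoxia and normoxia libraries of 11884 genes with 200 changed. It recovered 100% of changes of log2 1 and -1, 80% and 60% of 0.5 and -0.5, and 28% and 4% of 0.25 and -0.25, with 2.11% false calls. The pass limit was loosened after seeing these recoveries: earlier versions also set a limit at 0.5 and missed it in 2 designs, and the limit was then kept for 1 and -1 only. The member changes are near the sizes that were recovered poorly. Far more genes changed in the real comparison, where an unadjusted p up to 0.0184 was called. Software was limma 3.58.1 in R 4.3.3, and, in Python 3.11.15, matplotlib 3.10.9, pandas 2.3.3 and numpy 2.4.6.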

Additional observations from a re-analysis of the deposited data

How the results depend on the processing

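MMP14 and TIMP2 kept their direction and side of the threshold under all 19 alternatives, in which 9.22% to 45.6% of genes were called. TIMP1 was lost with no filter on low values (log2 fold change 0.20) and, in alternatives chosen after seeing the data, with the GC trend (0.11), the length trend (0.12) or both (0.0438) removed, and in these 4 the number of raised members was 1. MMP2, never called, changed sign with equal sums (-0.0506), limma-voom (-0.00956), the GC trend removed (-0.0642) and both trends removed (-0.0176). Decreases over all genes, 2901 as reported, numbered 1421 with median-of-ratios scaling, 1929 with its first definition, 1466 with upper-quartile scaling, and 1367 when low values were kept. MMP11 was lost and MMP25 called with no filter, and COL4A2 was lost with protein-coding transcripts only. In the lists, other family members had 1 raised above 5 RPKM and 1 lowered with limma-voom. Activation and surface control had 10 lowered with equal sums, 3 with no filter and 8 with limma-voom. ADAM and ADAMTS genes had 1 raised with equal sums, a pseudocount of 0.1, the replicate block and protein-coding transcripts, and 0 with no filter, above 5 RPKM, the GC trend removed and both trends removed; they had 0 lowered with both median-of-ratios scalings, upper-quartile scaling, no filter, above 5 RPKM and the length trend removed. Transcription factors had 4 raised with equal sums, and 1 lowered with upper-quartile scaling or the second median-of-ratios definition. Substrates had 1 lowered above 5 RPKM and 5 with the GC trend removed. The cause was not tested. Leaving out each library gave 1523 to 2866 decreases over all genes, with 1751, 1614 and 1523 without normoxia replicate 1, 2 and 3. Raised members numbered 1 to 2, other family members raised 1 to 2, activation genes raised 3 to 6, ADAM genes raised 0 to 2 and lowered 0 to 1, transcription factors raised 4 to 7 and lowered 1 to 3, and substrates lowered 1 to 4. MMP2 ranged from -0.0261 to 0.0550, changing sign without normoxia replicate 3 (-0.00198) and hypoxia replicate 3 (-0.0261), TIMP1 from 0.17 to 0.25, and the MMP14 to TIMP2 log2 ratio difference from 0.57 to 0.65. Same-numbered libraries of the groups did not visibly deviate together (correlations 0.0901, 0.0301 and -0.227, against -0.252 to 0.204 for other combinations). Whether same-numbered libraries were handled together cannot be told from so few values. With the replicate block 1465 genes were raised and 2664 lowered, and no member call changed. Depth limits MMP1 and MMP3, which rest on 6.64 to 14.4 estimated reads per library.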
